A study of Mus musculus with 8 samples.

Results

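The Six-family and Eya genes were examined in maps of open chromatin from the mouse lens, made by ATAC-seq, in which the transposase Tn5 inserts sequencing adaptors into accessible DNA. The members were 9 genes, Six2, Six3, Six4, Six5, Six6, Eya1, Eya2, Eya3 and Eya4, and every peak that overlapped the RefSeq gene body or the 50 kb on each side of it. Peaks of the 4 lists were joined where they lay within 10 bp of each other, and 206 of the 185368 joined regions fell in these windows. The tissues were the epithelium and the fibers of the lens, each taken at E14.5 and P0.5, and 2 libraries per group made 8 in all. The peak names inside both P0.5 lists say P1, and the stage of the labels is used here. All mice were CD1, a strain with no genetic change named in the labels, and the labels name no treatment. The reads of the 2 libraries of a group were pooled by the authors before peaks were called, so that each group has 1 list of peaks, no spread between libraries and no test across them. The 4 comparisons of these lists asked how the chromatin at the Six-family and Eya genes differed between epithelium and fibers at each stage, and between the stages in each tissue.

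The Six-family genes encode homeodomain transcription factors, and the Eya genes encode phosphatases that bind these factors and act as their co-activators. Together with Pax6 and the Dach co-factors they form a network that acts early in the eye field, the lens placode and the other placodes of the head. Six3 is needed for the lens placode to form, Six6 acts mainly in the retina and pituitary, Six2 is best known from the progenitor cells of the kidney, and Eya1 from the ear, the kidney and the branchial arches. In the lens, epithelial cells cover the front and divide, and fiber cells leave the cell cycle, elongate and fill with crystallins.

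The place of a peak was read as its rank percent, 100 times its rank by fold enrichment in its own list divided by the number of peaks in that list, so that a low value means a place near the top. At E14.5 the list of epithelium held 100003 peaks and that of fibers 123743, and at P0.5 they held 58592 and 62995, of which 141, 136, 66 and 91 lay in the windows. Wherever 4 values stand in a row without names, they follow this order of the lists (epithelium and then fibers of E14.5, epithelium and then fibers of P0.5). The lists give no reads, and the depth behind a peak was not analysed here. Peaks of equal fold enrichment share the best rank among them, and the 91 window peaks of P0.5 fibers took only 16 distinct ranks, against 54 among the 136 of E14.5 fibers, so that places in the P0.5 fiber list move in coarse steps. A peak from mixed cells also does not tell whether more cells had the site open or whether it was more open in each cell. Of the promoters of 9 fiber genes fixed as markers, among them the crystallin gene Crybb1 and the fiber channel gene Mip, all had a peak in both fiber lists, with a median rank percent of 3.18 against 16.0 in epithelium at E14.5. At P0.5 the median was 12.6 in fibers against 36.4 in epithelium, where 7 had a peak. The promoters of 6 epithelial genes were called in all 4 lists with medians of 6.9, 7.29, 17.2 and 12.2%, closer between the tissues than those of the fiber genes. Retinal promoters had a peak for 4, 6, 3 and 2 of 6 genes in the order of the lists, vessel promoters for 3, 4, 3 and 2 of 4 and blood promoters for 1, 0, 0 and 0 of 3, and the corneal gene Krt12 had none. Of all protein-coding genes, 70.3, 71.2, 67.0 and 64.6% had a promoter peak. The part of these other tissues in the results was not tested.

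Sequences are shown for the sites on which the results turn, first those of the Six-family genes. Each is the stretch around the highest summit of the region, 200 bases long and shortened where an exon of a protein-coding gene began, read from the plus strand of GRCm38, which has the same chromosome lengths as mm10. Capitals mark matches, on either strand, to TGATAC and TCAGGTT (motifs of Six-family factors), GGAATG (Tead), TGCTGA (Maf), AACAAT (Sox), TAATTA (homeodomain) and TGANTCA (AP-1). The Six2 promoter (chr17:85688317-85688516) is shown because its place differed most between the tissues, and the Six3 promoter (chr17:85620641-85620833) and the region behind the end of Six3 (chr17:85628900-85629099) because they carried the highest peaks of the Six3 gene. The intron of the antisense gene Six3os1 (chr17:85608680-85608879), the stretch before Six5 (chr7:19093840-19094039) and the Six6 promoter (chr12:72939680-72939879) carried the other peaks described for the Six-family genes.
Six2 promoter: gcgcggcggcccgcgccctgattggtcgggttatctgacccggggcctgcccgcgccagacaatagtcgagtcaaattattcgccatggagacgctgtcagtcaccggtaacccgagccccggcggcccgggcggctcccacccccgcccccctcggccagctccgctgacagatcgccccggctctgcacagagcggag
Six3 promoter: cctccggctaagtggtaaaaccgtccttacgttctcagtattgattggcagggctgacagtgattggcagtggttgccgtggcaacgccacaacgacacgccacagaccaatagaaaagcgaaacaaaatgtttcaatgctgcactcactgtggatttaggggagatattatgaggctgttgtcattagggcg
Six3 downstream region: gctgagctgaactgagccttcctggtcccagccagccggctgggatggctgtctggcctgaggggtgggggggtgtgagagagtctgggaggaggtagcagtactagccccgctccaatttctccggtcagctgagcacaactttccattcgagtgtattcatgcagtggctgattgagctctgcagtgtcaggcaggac
Six3os1 intron: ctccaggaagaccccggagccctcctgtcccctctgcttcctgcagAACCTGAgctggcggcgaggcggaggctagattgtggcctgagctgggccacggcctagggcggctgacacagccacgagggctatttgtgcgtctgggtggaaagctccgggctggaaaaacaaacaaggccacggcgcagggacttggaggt
Six5 upstream region: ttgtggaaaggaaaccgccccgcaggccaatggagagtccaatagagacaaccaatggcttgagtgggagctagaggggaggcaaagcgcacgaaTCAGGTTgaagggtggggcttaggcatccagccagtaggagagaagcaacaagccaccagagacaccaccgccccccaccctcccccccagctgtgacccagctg
Six6 promoter: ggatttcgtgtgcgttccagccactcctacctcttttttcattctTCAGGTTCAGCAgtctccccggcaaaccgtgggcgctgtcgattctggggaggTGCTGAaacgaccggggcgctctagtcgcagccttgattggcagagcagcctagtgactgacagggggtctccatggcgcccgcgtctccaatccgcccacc

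Sequences of the Eya genes follow, the Eya3 promoter (chr4:132638887-132639024), which had the highest Eya promoter peak in 3 of the 4 lists, and a site in an intron of Eya1 (chr1:14180311-14180510) and of Eya2 (chr2:165750945-165751144). The Eya1 and Eya2 sites had the largest difference between fibers and epithelium at E14.5 among regions called in both lists.
Eya3 promoter: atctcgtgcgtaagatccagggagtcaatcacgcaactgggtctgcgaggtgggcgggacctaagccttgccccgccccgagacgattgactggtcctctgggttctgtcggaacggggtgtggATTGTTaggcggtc
Eya1 intron: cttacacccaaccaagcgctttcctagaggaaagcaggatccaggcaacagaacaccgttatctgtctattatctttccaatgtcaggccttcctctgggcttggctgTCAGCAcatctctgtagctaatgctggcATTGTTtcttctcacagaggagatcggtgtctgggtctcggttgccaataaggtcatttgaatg
Eya2 intron: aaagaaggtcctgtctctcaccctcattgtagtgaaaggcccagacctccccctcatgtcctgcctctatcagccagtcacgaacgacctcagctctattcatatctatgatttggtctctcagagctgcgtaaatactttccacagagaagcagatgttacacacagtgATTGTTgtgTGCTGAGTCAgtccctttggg

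The Six2, Six3 downstream and Six3 promoter sequences held none of the 7 motifs. TCAGGTT was present in the Six3os1 intron, in the stretch before Six5 and in the Six6 promoter, where it overlaps the first of 2 Maf matches. The Eya2 intron held an AP-1 and a Maf match that overlap, with a Sox match beside them. The Eya1 intron held a Maf and a Sox match and the Eya3 promoter a Sox match. Over all 206 regions, the share with a motif in the 200 bp around the summit was close to that of all 185271 regions on chromosomes for every motif searched. TGATAC was found in 3.88% against 4.29% of all regions, TCAGGTT in 2.43% against 2.71%, GGAATG in 14.6% against 13.7% and TGCTGA in 22.3% against 23.1%. AACAAT was found in 6.31% against 7.04%, TAATTA in 2.43% against 1.83% and TGANTCA in 4.37% against 6.58%. The background share lay inside the 95% Wilson interval of the window share for each motif. A match is only a match of letters and does not show that a factor bound.

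Of the 206 regions, 14 lay within 2 kb of a curated start site of a member, 22 at the promoter of another gene, 65 in the gene body of a member, 69 in that of another gene and 36 between genes. For 101 of them (49.0%) the nearest start site was that of a member. The Six2 and Six3 windows overlap and share 12 regions. Of all 206, 25 (12.1%) were called in all 4 lists, against 10.9% of all regions, and 110 (53.4%) in 1 list alone, against 59.5%. Regions called in all 4 lists had a median GC content of 62.5% and 11 CpG dinucleotides in the 200 bp around the summit, against 53.0% and 3 for those called in 1 list. Over all regions on chromosomes the medians were 53.0% and 3. Of the 25 regions called in all 4 lists, 7 lay at the promoter of a member and 11 at that of another gene. Window regions of these classes had a median GC content of 63.2 and 58.0%.

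All 9 members had a promoter peak in both E14.5 lists, where 70.3% of 21000 protein-coding genes had one in epithelium and 71.2% in fibers. At P0.5, 8 of 9 had one in each tissue, against 67.0% of the genes in epithelium and 64.6% in fibers, and the missing gene was Eya2 in both. The members' median promoter place was 6.84, 6.93, 10.6 and 14.9% in the 4 lists, beside 7.68, 6.1, 12.8 and 10.3% for all genes with a promoter peak. The median of the members was placed above that of all genes in both epithelium lists and below it in both fiber lists, and single members ranged from 1.78 to 43.5% within E14.5 epithelium alone. The share of promoter GC also differed widely, from 49.0% with 9 CpG at Six3 to 85.0% with 35 CpG at Eya2, whose promoter was placed lowest of the 9 in both E14.5 lists.

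**Figure D1:**
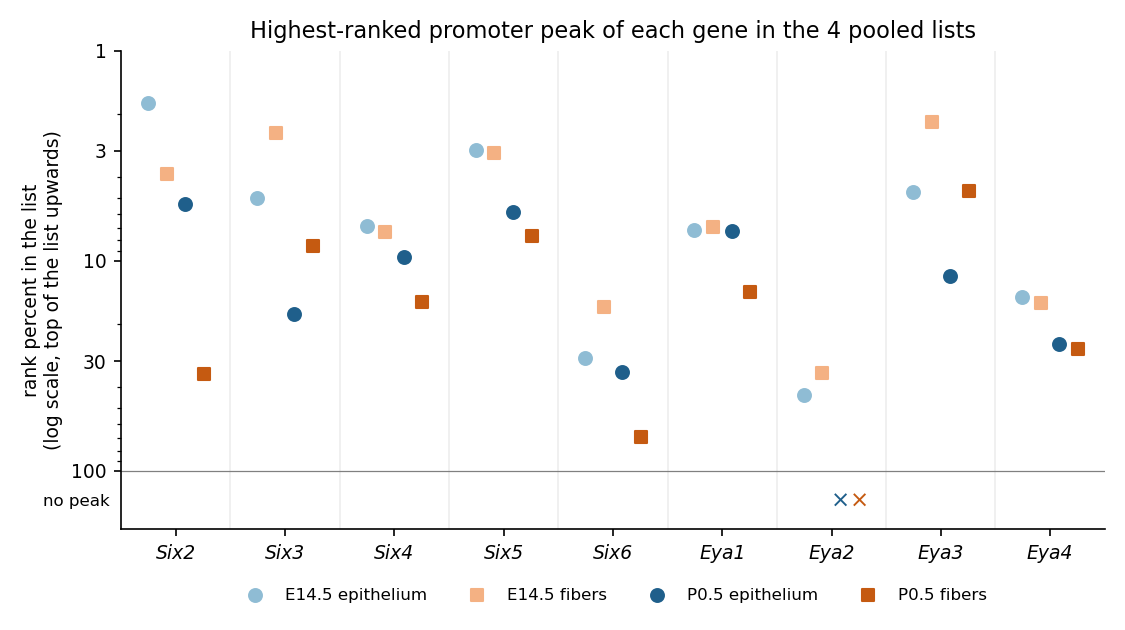
Place of the highest-ranked promoter peak (within 2 kb of a start site) of each of the 9 genes in the 4 pooled lists, as rank percent on a log axis with the top of the list upwards. Circles are epithelium and squares fibers, light colours E14.5 and dark colours P0.5, and a cross marks a list with no promoter peak. Six2 falls from 1.78% in E14.5 epithelium to 34.7% in P0.5 fibers, Six3 and Eya3 stand higher in fibers than in epithelium at both stages, and Eya2 has no promoter peak at P0.5.

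Six2 (chr17:85662736-85688254, minus strand), a factor that keeps progenitor cells undifferentiated in the kidney, had the promoter that differed most between the tissues. At E14.5 its promoter peak stood at 1.78% in epithelium (fold enrichment 71.7) and 3.86% in fibers (55.2). At P0.5 it stood at 5.37% in epithelium (24.6) and 34.7% in fibers (4.63). In both stages the epithelium list placed it higher, 2.17-fold at E14.5 and 6.46-fold at P0.5. In P0.5 fibers the peak was still 802 bp wide but its −log10 q was only 3.59. The log2 ratio of the rank percents, epithelium over fibers, was -1.12 at E14.5, where the median of 14426 promoters called in both lists was 0.36 and 2.56% of them had a lower ratio. At P0.5 it was -2.69, where the median of 12836 promoters was 0.21 and 1.66% were lower. Within fibers, the same peak stood 9.0-fold higher at E14.5 than at P0.5.

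The other regions of the Six2 window did not share this direction at E14.5. Of 15 window regions called in both E14.5 lists, 6 were placed at least 2-fold higher in fibers and only the promoter region (chr17:85686924-85688970) in epithelium, beside 12.9 and 4.52% of all regions called in both lists. Of these 6, 3 lay nearer to Six3, in the overlap of the windows. A region at -2.52 kb from the start site (chr17:85690112-85691168), with its summit in an exon of the neighbouring gene CJ186046Rik, stood at 35.9 and 11.7% in epithelium and fibers of E14.5 and was called in neither P0.5 list. A region 3.0 kb behind the start site (chr17:85685029-85685568), with its summit in an exon, stood at 46.8 and 20.1% in epithelium and fibers of E14.5 and at 34.7% in P0.5 fibers, and was not called in P0.5 epithelium. An intronic region 23.1 kb behind the start site (chr17:85665039-85665246) was called in every list but P0.5 fibers, at 13.1% among E14.5 fiber peaks and 29.6% among those of P0.5 epithelium. At E14.5 the region over the start site and the regions at -2.52 and 3.0 kb were thus placed in opposite orders in the tissues. In E14.5 fibers the peak at -2.52 kb ran from -2914 to -1858 bp, so that by the 2 kb rule it also counts as a promoter region.

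Six3 (chr17:85613608-85626191, plus strand), which is needed for the lens placode, had the widest single peak of the 9 windows, while the share of the gene body covered was higher at Six5 in every list but that of E14.5 fibers. Peaks covered 60.2% of its gene body in epithelium and 83.5% in fibers at E14.5, and 29.3 and 27.4% at P0.5. Over the whole 113 kb window the covered share was 15.4, 24.8, 6.05 and 4.89% in the same order, beside medians of 2.36, 3.55, 1.41 and 1.16% for the windows of 21774 protein-coding genes, and 97.5, 98.2, 95.6 and 88.6% of those windows were covered less. In E14.5 fibers a peak of 6993 bp ran from before to behind the start site (chr17:85616110-85623102), and only 25 of the 123743 peaks of that list were wider. The stretch was split into more pieces in the other lists, with 29 peaks in 16 regions of the window in E14.5 epithelium against 22 peaks in 22 regions in E14.5 fibers. RefSeq extends this gene by predicted transcripts, and the antisense gene Six3os1 overlaps it.

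**Figure D2:**
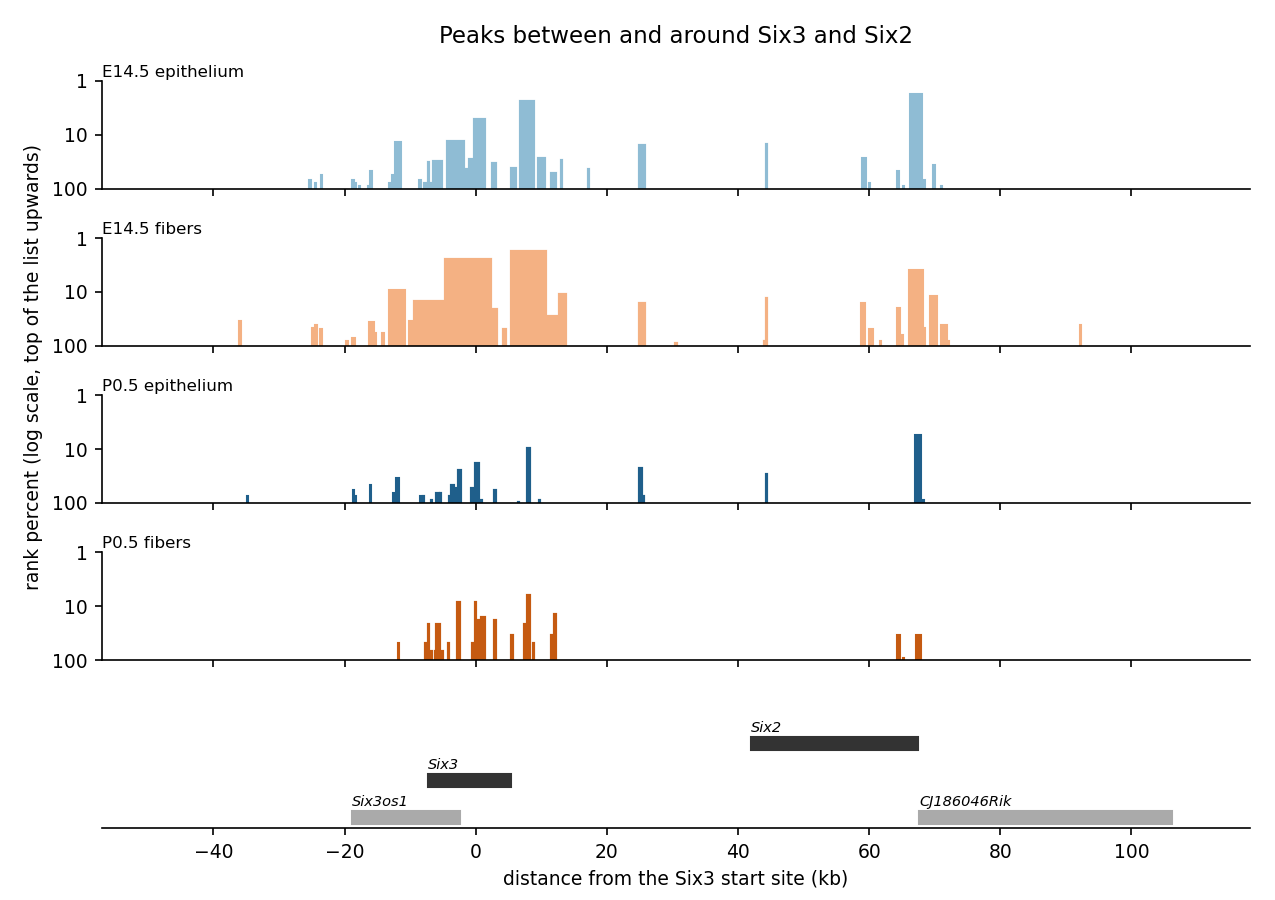
Peaks of the Six3 and Six2 windows in the 4 pooled lists against the distance in kb from the Six3 start site, with gene bodies below (members dark, others grey). Each bar is a peak with its width to scale (at least 150 bp drawn), and its height is the rank percent on a log axis with the top of the list upwards. Wide peaks lie around Six3 in E14.5 fibers, and the peak at the Six2 start site near 67.5 kb is high in the epithelium lists and low in P0.5 fibers.

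The Six3 promoter stood at 5.01% in epithelium and 2.47% in fibers at E14.5, and at 18% and 8.49% at P0.5. Fibers placed it higher at both stages, 2.03-fold at E14.5 and 2.12-fold at P0.5, the opposite of Six2. Both ratios lay just past the 2-fold step and fell below it with equal numbers of peaks (log2 ratios of 0.71 and 0.98). With peaks of a q value under 0.001 they fell to 0.89 at E14.5 and 0.26 at P0.5. These settings moved the median of all promoters too, and relative to it Six3 stood at 0.66 under both settings at E14.5, and at P0.5 at 0.88 with all peaks, 0.86 with equal numbers and 0.82 with the q value. Among all promoters called in both lists, 12.1% at E14.5 and 19.4% at P0.5 had a higher ratio, so that the Six3 difference was less unusual than that of Six2. The highest peak of the Six3 window was not the promoter but the region 8.17 kb behind the start site (chr17:85626227-85631591), between genes and past the 3′ end of Six3. It stood at 2.35, 1.74, 9.54 and 6.31% in the order of the lists, and it was also the highest peak of the Six2 window in both fiber lists.

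Further regions of the Six3 gene were called in all 4 lists. An intronic region 2.83 kb behind the start (chr17:85623240-85624049) stood at 33.9, 20.7, 58.5 and 18.2%, and was placed 3.22-fold higher in P0.5 fibers than in P0.5 epithelium. A region before the curated start site (chr17:85611483-85615864), within Six3os1 and the longest Six3 model, stood at 30.5, 14.4, 66.3 and 21.4%. The Six3os1 intron (chr17:85607590-85610018), 12.1 kb before Six3, stood at 13.5, 9.23, 33.9 and 48.9%. The first and second of these had a lower rank percent in the fibers of both stages and the Six3os1 intron only in those of E14.5, though at E14.5 only the second differed by 2-fold. A region 25.1 kb behind the start (chr17:85645775-85646610) was called at 15.6, 16.2 and 22.5% in the 2 E14.5 lists and P0.5 epithelium and not in P0.5 fibers.

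Six6 (chr12:72939882-72944899, plus strand), the close relative of Six3 that acts in the retina, had the fewest regions, 5 in its window. Its promoter region (chr12:72939610-72940651) stood at 29.0% in epithelium and 16.6% in fibers of E14.5 and at 33.9% in P0.5 epithelium, and was not called in P0.5 fibers. The promoter peak counted in P0.5 fibers was another one, 120 bp wide with its summit 1754 bp behind the start site, at 69.2%. The promoter was thus placed 1.74-fold higher in fibers at E14.5, and 85.2, 78.1, 83.9 and 95.3% of all called promoters stood above it in the order of the lists. A region 37.0 kb behind the start site (chr12:72976801-72977028), between genes, was the highest of the window in E14.5 epithelium and stood at 18.3, 25.2 and 31.6% in the first 3 lists. In P0.5 epithelium the highest was at the promoter of 4930447C04Rik (chr12:72917307-72917495), at 29.6% against 40.6% at E14.5, and in P0.5 fibers a region 5.67 kb behind the Six6 start site (chr12:72945375-72946061), at 48.9%. Peaks covered 1.26, 1.7, 0.615 and 0.414% of the window, below the median of all genes in each list.

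Six4 (chr12:73099609-73114031, minus strand), which acts with its relatives in muscle and sensory placodes, had a promoter peak in all 4 lists. It stood at 6.84, 7.33, 9.54 and 15.7% in the order of the lists and was the highest peak of the window in each. The tissues differed by 1.07-fold at E14.5 and 1.65-fold at P0.5, below the 2-fold step used here. A region between genes 59.3 kb behind the Six4 start site stood at 10.2, 14.4, 9.96 and 48.9%, which is 4.91-fold higher in P0.5 epithelium than in P0.5 fibers. A region in an intron of the gene (chr12:73110402-73110646) was called in E14.5 epithelium alone, at 43.5%, and one at the promoter of the neighbouring gene Mnat1 (chr12:73125315-73125496) in E14.5 fibers alone, at 26.1%.

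Six5 (chr7:19094544-19098549, plus strand), the gene next to the myotonic dystrophy kinase gene Dmpk, lay in the densest window, with 51 regions in 104 kb. Most of them belong to other genes, since the nearest start site was that of Six5 for only 8. The region at its own promoter (chr7:19091477-19097769) stood at 2.96, 3.06, 5.87 and 7.65% in the order of the lists. It held the widest window peak of 3 lists, of 5448 bp in E14.5 epithelium and of 2512 and 1677 bp in epithelium and fibers of P0.5. In E14.5 epithelium only 5 of the 100003 peaks were wider than this, and in E14.5 fibers the peak there was 5777 bp wide with 50 wider ones in the list. The highest promoter summit lay at -604 bp from the start site in both E14.5 lists, at -1836 bp in P0.5 epithelium and 291 bp behind it in P0.5 fibers. The 5.87% of P0.5 epithelium is thus that of a peak from -2058 to -902 bp. The peak over the start site (-745 to 1766 bp) stood at 10.8% in that list. In P0.5 fibers the 7.65% is that of the peak over the start site (-705 to 971 bp), so the P0.5 values compare different peaks.

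The highest peaks of the Six5 window stood at its neighbours. A region in an exon of Fbxo46 (chr7:19130817-19132133) stood at 0.406, 0.319, 2.95 and 1.08%, the highest of any window in the first 3 lists. The promoter of Dmwd (chr7:19075441-19078414) stood at 0.892, 0.379, 3.97 and 0.697% and was placed 5.69-fold higher in P0.5 fibers than in P0.5 epithelium. The promoter shared by Bhmg1 and Fbxo46 (chr7:19119600-19120513) stood at 2.56, 1.2, 7.95 and 11.4% and was placed 9.5-fold higher in E14.5 fibers than in P0.5 fibers, the largest ratio of that comparison. A region in the body of Dmpk (chr7:19085469-19086441), within 2 kb of the start of Mir3100, stood at 27.7, 32.5, 22.5 and 69.2%, while the region over the Dmpk start site (chr7:19083624-19084721) stood at 43.5, 20.1, 66.3 and 26.4%. These values describe the neighbourhood and not Six5 itself. Of the 24 window regions called in P0.5 fibers alone, 13 lay here, and of all 24 only 5 (20.8%) had a q value under 0.001, beside 23.4% of all regions called in that list alone. These 5 regions were tied at 34.7%, and among them were one in the Sympk gene (chr7:19046656-19046833) and one in Eya2 (chr2:165711631-165711744).

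**Figure D3:**
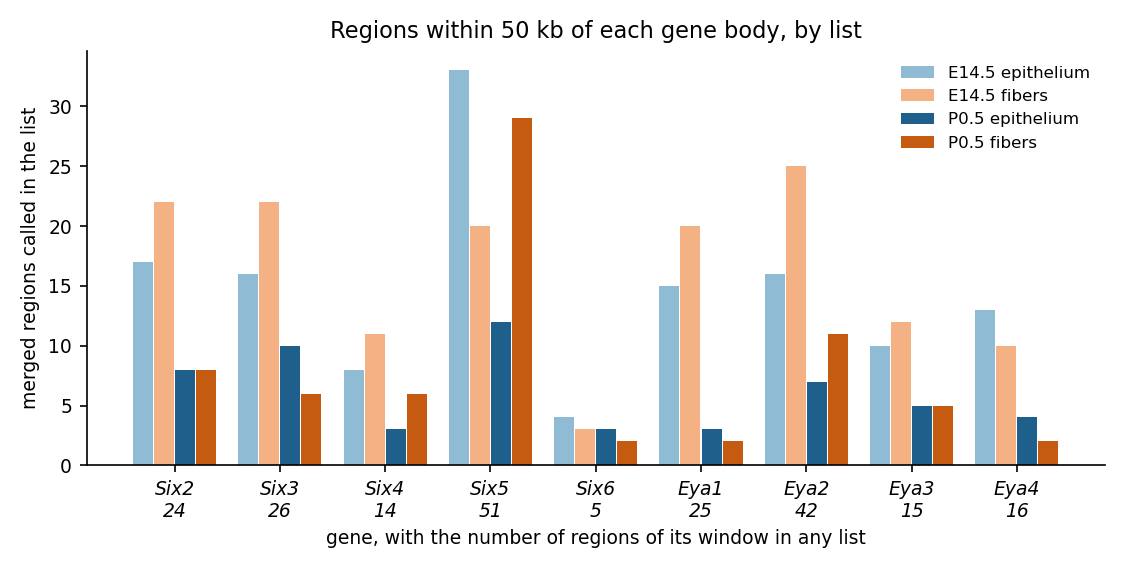
Number of joined regions called in each pooled list within 50 kb of each gene body, with the number in any list under the gene name. Bars are counts from 0, light colours E14.5 and dark colours P0.5. Eya1 falls from 15 and 20 regions at E14.5 to 3 and 2 at P0.5, while in fibers the Six5 window has 20 at E14.5 and 29 at P0.5.

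Eya3 (chr4:132639025-132724765, plus strand), a phosphatase of the same family, had the highest Eya promoter in every list but P0.5 epithelium, where that of Eya1 stood higher. It stood at 4.68% in epithelium and 2.18% in fibers at E14.5, and at 11.8 and 4.64% at P0.5. Fibers placed it higher at both stages, 2.15-fold at E14.5 and 2.54-fold at P0.5, and 9.72 and 13.4% of all promoters called in both lists had a higher ratio. The E14.5 difference fell below 2-fold with equal numbers of peaks (log2 ratio 0.8) and with peaks of a q value under 0.001 (0.98). The P0.5 difference fell below 2-fold with that q value (0.52). Relative to the median of all promoters, Eya3 moved only from 0.75 to 0.74 and from 1.13 to 1.08. It was the highest peak of the Eya3 window in every list. The promoters of its neighbours Xkr8 (7.35, 6.43, 19.6 and 14.0%) and Rpa2 (7.47, 4.2, 20.5 and 14.0%) came next in the window. The promoter of Smpdl3b (chr4:132756848-132757347) stood in the other order, at 20.9, 40.2, 33.9 and 91.3%. Within the gene, only 3 regions lay outside the promoter, and one of them (chr4:132676744-132677058, intron) was called in E14.5 fibers alone, at 24.3%.

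Eya1 (chr1:14168953-14311035, minus strand), the Eya gene known from the ear and kidney, kept its promoter peak but lost nearly all other calls at P0.5. The promoter stood at 7.17% in epithelium and 6.93% in fibers at E14.5, and at 7.24 and 14.0% at P0.5. In P0.5 epithelium its place was almost that of E14.5 epithelium (1.01-fold), whereas the median promoter fell by 0.75 on the log2 scale. Of the 25 regions of the window, 21 (84.0%) were called only at E14.5, against 56.8% in all 9 windows and 53.6% of all regions, and none only at P0.5. Of the 25, 20 lay in the gene body outside the promoter. Besides the promoter, P0.5 epithelium called 2 regions and P0.5 fibers 1. An intronic region (chr1:14180252-14180592) was placed 3.71-fold higher in E14.5 fibers (26.1%) than in E14.5 epithelium (97.0%), where it was near the end of the list, and it was called in neither P0.5 list.

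**Figure D4:**
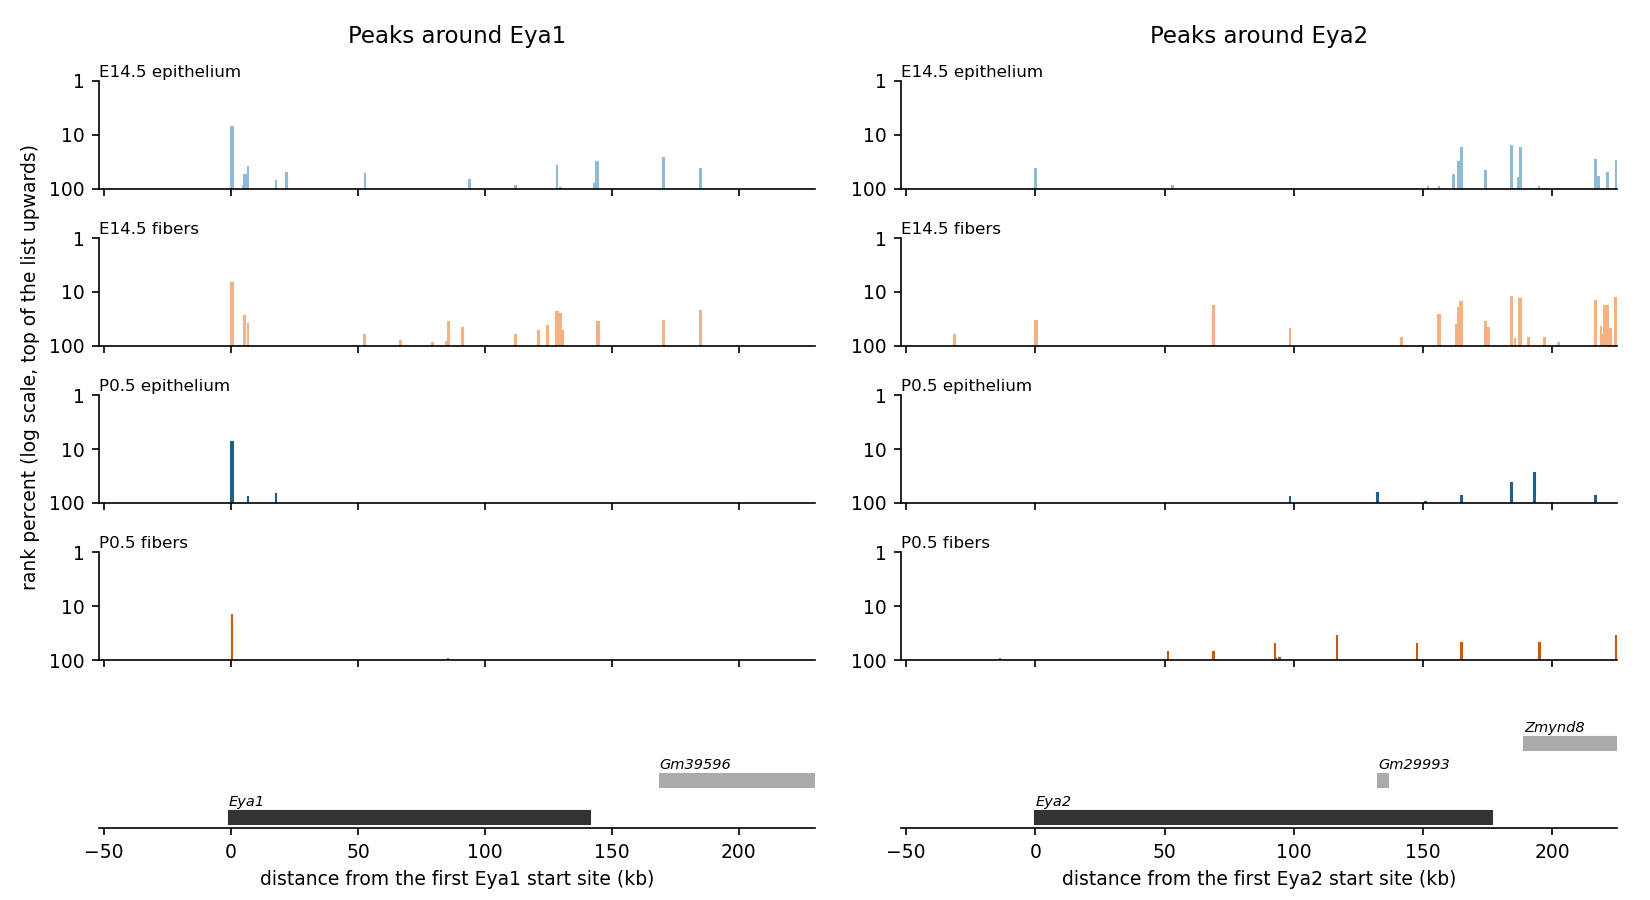
Peaks of the Eya1 window (left) and the Eya2 window (right) in the 4 pooled lists against the distance in kb from the first start site of each gene, with gene bodies below. Bars show width (at least 150 bp drawn) and rank percent on a log axis with the top of the list upwards. Eya1 has peaks along its whole body at E14.5 and almost only its promoter at P0.5, and the higher Eya2 peaks lie toward the 3′ end of the gene and in Zmynd8.

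Eya2 (chr2:165595028-165771727, plus strand), which is known from muscle and sensory placodes, had the lowest promoter. Only the first of its 3 curated start sites had a peak, at 43.5 and 34.2% in epithelium and fibers of E14.5, and none was called at P0.5. The lists do not show that the promoter was closed at P0.5, only that no peak passed the q value there. The window held 42 regions, of which 30 were called in 1 list alone, a larger share than the 59.5% among all regions. The higher ones lay far behind the start sites. An intronic region near the 3′ end (chr2:165759333-165760160) was the only one called in all 4 lists, at 17.3, 15.3, 75.7 and 48.9%. A region between Eya2 and Zmynd8 (chr2:165779005-165779340) was the highest of the window at E14.5 and stood at 16.4, 12.3 and 42.9% in the first 3 lists. An intronic region (chr2:165750965-165751403) was placed 3.23-fold higher in E14.5 fibers (27.2%) than in E14.5 epithelium (87.9%). In the body of Zmynd8, a region (chr2:165788052-165788255) was called in P0.5 epithelium alone, at 27.9%, and was the highest of the window there.

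Eya4 (chr10:23102962-23350838, minus strand), known from hearing loss and heart muscle disease, had a promoter that hardly differed between the tissues. Its promoter stood at 14.8, 15.9, 24.9 and 26.4% in the order of the lists, with ratios of 1.07 at E14.5 and 1.06 at P0.5. It was the highest peak of the window in each list. Although the gene is the longest of the 9, at 248 kb, its window held only 16 regions, and 11 of them (68.8%) were called only at E14.5, beside 53.6% of all regions. An intronic region (chr10:23126492-23126886) was called at 30.5, 31.0 and 58.5% in the 2 E14.5 lists and P0.5 epithelium. A short region before the start site (chr10:23351702-23351793) was called in P0.5 epithelium alone, at 66.3%.

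Taking the promoters of the 9 genes together, the comparison of E14.5 fibers with E14.5 epithelium placed Six3 and Eya3 at least 2-fold higher in fibers, where 12.7% of all promoters did so, and Six2 in epithelium, where 3.26% did so. At P0.5 the same genes, Six3 and Eya3, were higher in fibers (21.8% of all promoters) and Six2 and Six6 in epithelium (15.0%), out of 8 called in both lists. From E14.5 to P0.5, none of 8 promoters was placed higher at P0.5 in epithelium (3.3% of all promoters) and 3 were placed higher at E14.5 (37.9%), Six2, Six3 and Eya3. In fibers, again none of 8 was higher at P0.5 (2.43%) and 7 were higher at E14.5 (45.0%), all but Eya4. The P0.5 lists are shorter than the E14.5 lists. With the 58592 strongest peaks of each list by −log10 p, the median of all promoters moved from -0.75 to 0.0 on the log2 scale in epithelium and from -0.89 to 0.06 in fibers. Under these equal numbers only 2 of the 7 fiber promoters were still placed at least 2-fold higher at E14.5, Six2 with a log2 ratio of -2.2 and Six6 with -1.08, while Six3 was at -0.81, Six5 at -0.35, Six4 at -0.13, Eya3 at -0.12 and Eya1 at -0.04. In epithelium only Six3 (-1.07) of the 3 was, with Six2 at -0.82 and Eya3 at -0.56. Of all promoters, 12.9% in fibers and 11.8% in epithelium were placed at least 2-fold higher at E14.5 under this setting. The Six6 ratio compares different peaks, and with peaks of a q value under 0.001 Six6 had no promoter peak in P0.5 fibers. For Six5, the place in P0.5 epithelium is that of a peak before the start site. The Six5 peak over the start site stood lower in that list, at 10.8%.

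Over all regions of the 9 windows, the comparison of E14.5 fibers with E14.5 epithelium covered 176 regions called in either list, of which 81 were called in both. Fibers alone had 53 of them (30.1%, 95% interval 23.8 to 37.3%), below the 40.1% of all regions called in either list. The background lay inside the interval with equal numbers of peaks (20.5%, background 24.8%), with peaks of a q value under 0.001 (27.9%, background 34.8%) and without the Six5 window (34.8%, background 40.1%). Epithelium alone had 42 (23.9%), beside a background of 19.7%, and 18 of these 42 lay in the Six5 window. Of the 81 shared regions, 15 (18.5%) were placed at least 2-fold higher in fibers, beside 12.9% of all, and 1 (1.23%) in epithelium, beside 4.52%. The last was the Six2 promoter region. The intervals cover counting error only, and neighbouring regions are not independent.

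At P0.5, 89 regions were called in either tissue and 26 in both. Fibers alone had 40 (44.9%, 95% interval 35.0 to 55.3%), beside 39.6% of all regions, and 19 of these were in the Six5 window. Epithelium alone had 23 (25.8%, 17.9 to 35.8%), beside 35.2%. Of the 26 shared regions, 8 (30.8%) were at least 2-fold higher in fibers, beside 23.0%, and 5 (19.2%) in epithelium, beside 13.2%. The background lay inside the interval of the windows for all 4 shares.

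Between the stages, most regions of the windows were called only at E14.5. In epithelium 81 of 130 regions (62.3%, 53.7 to 70.2%) were called at E14.5 alone, above the 49.7% of all regions, and 7 (5.38%, 2.63 to 10.7%) at P0.5 alone, below the 11.2% of all. Of the 42 in both lists, 17 (40.5%) were placed higher at E14.5, beside 31.1%, and 0 at P0.5, beside 2.03%. The Six5, Eya2 and Eya1 windows held 21, 13 and 12 of the 81 regions. With equal numbers of peaks the share at E14.5 alone was 39.0%, again above its background of 27.0%, while the share at P0.5 alone was 14.6%, with its background of 22.4% inside the interval.

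In fibers 96 of 162 regions (59.3%, 51.6 to 66.5%) were called at E14.5 alone, beside 62.5% of all, and 28 (17.3%) at P0.5 alone, beside 17.6%. The background lay inside the interval of both shares. Of the 38 shared regions, 22 (57.9%, 42.2 to 72.1%) were placed at least 2-fold higher at E14.5, above the 35.1% of all, and 4 (10.5%) at P0.5, beside 6.84%. The ratio was largest at the Fbxo46 promoter and the Six2 promoter region (9.0-fold). With equal numbers of peaks the first of these shares was 13.8%, beside 11.1%, and was no longer above the background by more than counting error. The 2 regions with the largest ratio toward P0.5 fibers lay in Sympk (chr7:19050135-19050407, 97.7% at E14.5 and 26.4% at P0.5) and in Rsph6a (chr7:19065321-19065607, 80.6 and 34.7%), both nearer to other genes than to Six5.

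**Figure D5:**
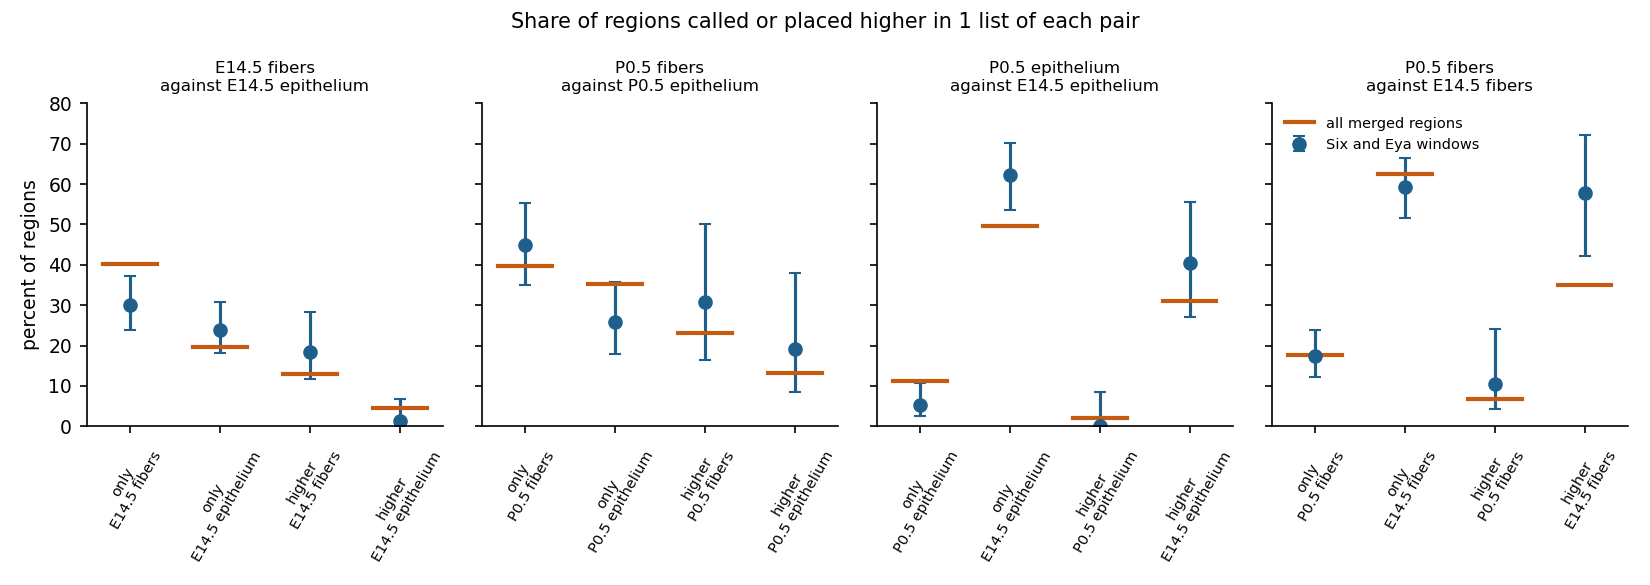
Percent of window regions called in 1 list only (of those called in either list) or placed at least 2-fold higher in 1 list (of those called in both), for the 4 comparisons. Points are the Six-family and Eya windows with 95% Wilson intervals, and horizontal lines are all joined regions. The share called in E14.5 epithelium only stands above its line in the comparison with P0.5 epithelium (62.3 against 49.7%), and the share called in E14.5 fibers only stands below it in the comparison with E14.5 epithelium (30.1 against 40.1%), which with equal numbers of peaks was within counting error (20.5 against 24.8%).

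Partner genes of the Six-family and Eya family were read from a list of 21 genes of the early eye and lens network, all of which were found in the annotation, Aes under its RefSeq symbol Tle5. A promoter peak was called for 20, 21, 20 and 19 of them in the order of the lists, and for 19 in all 4 lists, beside 70.3, 71.2, 67.0 and 64.6% of all protein-coding genes. The exceptions were Otx2, a forebrain and retina factor with a peak only in E14.5 fibers (58.1%), and Rax, an eye field factor with peaks at 38.1, 27.2 and 96.5% in the first 3 lists and none in P0.5 fibers. The Groucho-type co-repressor genes Tle1 and Tle4, whose products bind Six3, had the highest promoters, at 0.036, 0.233, 0.0649 and 0.0508% for Tle1 and 0.086, 0.0792, 0.522 and 0.283% for Tle4. Pax6, the factor at the head of the network, stood at 3.73, 0.479, 6.64 and 6.31%, and the Dach co-factor gene Dach1 at 12.5, 9.99, 19.6 and 9.32%. Hsf4, a fiber gene, stood at 27.7% and 47.1% in epithelium of E14.5 and P0.5 and at 5.76% and 12.6% in fibers. The medians of the list were 6.44, 7.48, 14.4 and 12.6%, beside 6.84, 6.93, 10.6 and 14.9% for the 9 Six-family and Eya promoters.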

How the data were processed

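ATAC-seq was measured in 8 libraries of CD1 mouse lens, 2 in each of 4 groups. By the submitters' processing notes and the study's methods, the authors trimmed reads with Trim Galore 0.4.1 and mapped them to mm10 with Bowtie2 2.3.3.1. They processed the mapped reads with SAMtools 1.2 and Picard 2.1.1. For the deposited lists they merged the reads of both libraries of each group and ran MACS2 2.1 with a q value cutoff of 0.05. The study's methods instead describe peaks called in each sample and joined afterwards, so the regions here were not built as those of the study. The deposited fold enrichment is a ratio of pooled reads to the local background made by the authors, and the deposited −log10 p and −log10 q values come from the same call. Fold enrichment is scaled within each list and was therefore compared between lists only as a rank. The fold enrichments printed for the Six2 promoter were not compared between lists. Genome blacklists were not applied here.

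Lists were assigned to groups by stage and tissue, and 0 columns were left unassigned. In python 3.11.15 (numpy 2.4.6, pandas 2.3.3), regions were joined at 10 bp and placed on the RefSeq annotation of GRCm38 (45756 curated transcripts), with a promoter within 2 kb of a start site and an overlap of at least 1 bp. A region was placed higher in a list where its rank percent was at least 2-fold lower. Sequences came from the RefSeq GRCm38 genome through pysam 0.24.0, Wilson intervals from scipy 1.17.1 and figures from matplotlib 3.10.9. The steps were tested on simulated data with known patterns.

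The members, gene lists, motifs and comparisons were chosen with earlier results of these data known. Besides all 9 genes, regions were named by rule: the highest peak of each window and promoter, the 5 highest non-promoter regions called in all lists, the 2 highest regions called in 1 list alone with a q value under 0.001, the 2 largest ratios of each comparison in each direction and the widest peak of each list. Neighbours of the Six2 promoter, other Six3, Six6, Eya2 and Eya4 regions and the neighbouring promoters were named after their values were seen. Alternatives were a q value under 0.001, equal numbers of peaks, other joining distances, windows, overlaps, rankings and ratios, and, chosen after seeing the data, windows without Six5 and regions nearest to a member's start site. With 1 pooled list per group no test was run. Of the regions named by rule, 1 is not reported here.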

Additional observations from a re-analysis of the deposited data

Results flagged for a closer look

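The Six6 promoter stood on opposite sides at the 2 stages, since fibers placed it higher at E14.5 (log2 ratio of rank percents, epithelium over fibers, 0.8) and epithelium placed it higher at P0.5 (-1.03), a difference of -1.83 between the stages. The difference was not tested, as each group has 1 pooled list. The peak counted in P0.5 fibers was not the one of the other lists: it was 120 bp wide, lay 1754 bp behind the start site and had a −log10 q of 2.0, while the region at the start site itself was not called there.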

How the results depend on the processing

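No paired analysis was possible because each group has 1 pooled list, and for the same reason no library could be left out. Of 168 recomputed shares of the 4 comparisons, 140 stayed within the interval of the reported share and 28 moved, and none of the 20 recomputed counts of members with a promoter peak moved by more than 1.5 times. The rank percent of the top peak of a window moved in 76 of 215 recomputed values and the motif shares in 9 of 14, since a motif window of 100 or 400 bp holds fewer or more matches. Each recomputed share is given with the share of all regions under the same setting in parentheses. For E14.5 fibers against E14.5 epithelium, equal numbers of peaks gave 20.5% (24.8%) in fibers only, 17.0% (20.7%) in epithelium only and 5.45% (5.7%) higher in fibers. A q value under 0.001 gave 9.86% (9.51%) higher in fibers, a 3-fold ratio gave 3.7% (3.36%) higher in fibers and 0.0% (0.997%) in epithelium, and without the Six5 window 17.4% (19.7%) were in epithelium only. For P0.5 fibers against P0.5 epithelium, a q value under 0.001 gave 22.0% (18.4%) in fibers only, 47.5% (51.0%) in epithelium only and 5.56% (6.83%) higher in fibers. A 3-fold ratio gave 11.5% (9.34%) higher in fibers, and without the Six5 window 36.2% (35.2%) were in epithelium only. For epithelium between stages, equal numbers gave 14.6% (22.4%) at P0.5 only, 39.0% (27.0%) at E14.5 only and 13.2% (7.37%) higher at E14.5, and a 3-fold ratio 16.7% (9.99%). For fibers between stages, a q value under 0.001 gave 8.2% (6.7%) at P0.5 only, 74.6% (74.3%) at E14.5 only, 0.0% (1.63%) higher at P0.5 and 85.7% (63.8%) higher at E14.5. Equal numbers gave 29.1% (33.0%) at P0.5 only, 42.7% (40.4%) at E14.5 only and 13.8% (11.1%) higher at E14.5. A 3-fold ratio gave 2.63% (2.25%) higher at P0.5 and 28.9% (17.1%) at E14.5. Without the Six5 window 9.52% (17.6%) were at P0.5 only, 70.6% (62.5%) at E14.5 only and 4.0% (6.84%) higher at P0.5. The cause of these moves was not tested. In epithelium, the share at E14.5 only was above its background under all 10 alternatives, but with 10 kb flanks the background of 49.7% lay inside the interval (47.4 to 69.1%). The share at P0.5 only was below its background under all 10, but under 5 of them the background lay inside the interval. No promoter ratio of 2-fold or more changed direction among 194 recomputed ratios, and 21 crossed the 2-fold step. Six3 in E14.5 fibers against E14.5 epithelium fell to 0.71 on the log2 scale with equal numbers of peaks, where the median of all promoters fell from 0.36 to 0.06, and Eya3 to 0.8. With a q value under 0.001, Six3 in P0.5 fibers against P0.5 epithelium fell to 0.26 and Eya3 to 0.52, where that median was -0.56. In the E14.5 comparison of the tissues this q value gave 0.89 for Six3 and 0.98 for Eya3, where the median was 0.23. Without reads or separate libraries, no difference between lists can be set against the spread between replicates.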
